A study of Caenorhabditis elegans with 18 samples.

Results

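The genes described here encode the subunits of the proteasome of the nematode Caenorhabditis elegans. They were chosen by name: all genes whose symbol in the platform annotation starts with pas-, pbs-, rpn- or rpt-, each read by the probe set that names it alone and has the highest mean over the arrays. This gave 33 genes of the 17118 that the array names with at least 1 such probe set. Each symbol matched an entry of the RefSeq genes of assembly WBcel235. RNA of whole hermaphrodites or embryos was hybridised to Affymetrix arrays, 18 in all, in 6 groups of 3. The groups are the wild type N2 and the mutant lin-35(n745), each as embryos, as L1 larvae (the first larval stage) and as L4 larvae (the last before adulthood). All were grown on NGM agar with the bacterium OP50, the larvae as synchronised populations, and each group holds separately grown and isolated samples. The L1 labels call the mutant a lin-35 null. The labels used here do not say whether the L1 larvae had been fed or how old the embryos were.

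The proteasome is the protease of the cytosol and nucleus that degrades proteins tagged with ubiquitin. Its 20S core is a barrel of outer rings of alpha subunits (pas genes), which gate the entrance, and inner rings of beta subunits (pbs genes), some of which cut the substrate. The 19S regulatory particle caps the barrel: the ATPases of its base (rpt genes) unfold the substrate, while the other base subunits and the lid (rpn genes) bind ubiquitin chains and remove them. In worms the transcription factor SKN-1 raises the transcription of proteasome genes when the proteasome is impaired. lin-35 encodes the worm's only retinoblastoma-like pocket protein, a repressor of transcription, and n745 is a nonsense allele.

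All values below are log2 levels as deposited, and a strain difference is lin-35(n745) minus N2. A gene was called when its adjusted p was under 0.05 in a limma fit across 22548 probe sets and all 18 arrays, with Benjamini-Hochberg adjustment within each comparison. Within a group the arrays correlated at 0.9863 to 0.9973, and the median of an array lay between 6.21 and 6.39. The lin-35 transcript checked the labels. Embryos read 9.07 to 9.36 in N2 and 7.68 to 8.22 in the mutant, L1 larvae 7.82 to 7.86 and 6.24 to 6.95, and L4 larvae 7.60 to 7.71 and 6.32 to 6.49. At each stage every mutant array lay below every N2 array, by 1.38, 1.27 and 1.25 on average (limma adjusted p 2.07e-06, 3.29e-06 and 4.35e-06). Some arrays stood apart from their group for the proteasome genes. The third lin-35(n745) L1 array held the lowest of its group's 3 values for 32 of the 33 genes, and the second lin-35(n745) L4 array for 28. In embryos, replicate 1 of each strain read 9.47 and 9.77 on the BioDn labelling controls, against 11.29 to 11.47 on the other embryo arrays. Because whole animals were measured, fewer cells of a type and less RNA per cell cannot be told apart in any value below.

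The 33 genes divide into 7 of the alpha ring, 7 of the beta ring, 6 ATPases of the 19S base, 4 other base subunits and 9 of the lid. Except for rpn-6.2, a paralog of the lid gene rpn-6.1, the mean signals over the arrays ran from 9.11 for rpt-6 to 11.33 for rpt-3, above the median of every array. Probe sets differ in brightness, so these signals give no order of the genes' transcript levels. All 33 reached a mean of 6 in at least 1 group. The spread within a group was small, with a median SD of 0.101 over genes and groups and a highest SD of 0.392, that of rpn-5 in N2 embryos. The genes lie on chromosome I (10), II (7), III (8), IV (3) and V (5), and 0 lie on X, which holds 13.8% of all genes found in the gene table.

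rpt-3, an ATPase of the base with the brightest probe set of the 33, shows the common pattern. N2 embryos read 10.80, 11.11 and 11.09, and N2 larvae 11.46, 11.56 and 11.55 at L1 and 11.58, 11.59 and 11.61 at L4. lin-35(n745) embryos read 10.62, 10.83 and 11.08, L1 larvae 11.62, 11.57 and 11.25, and L4 larvae 11.61, 11.43 and 11.52. All larval arrays of both strains lay above all embryo arrays, and at every stage the arrays of the strains overlapped. Taken as the median over all 33 genes on each array, N2 ran from 10.16 to 10.25 in embryos, from 10.85 to 10.91 at L1 and from 10.88 to 10.99 at L4, and lin-35(n745) from 9.99 to 10.15, from 10.65 to 10.96 and from 10.78 to 10.91. Embryos and larvae did not overlap in either strain, whereas L1 and L4 did.

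**Figure D1:**
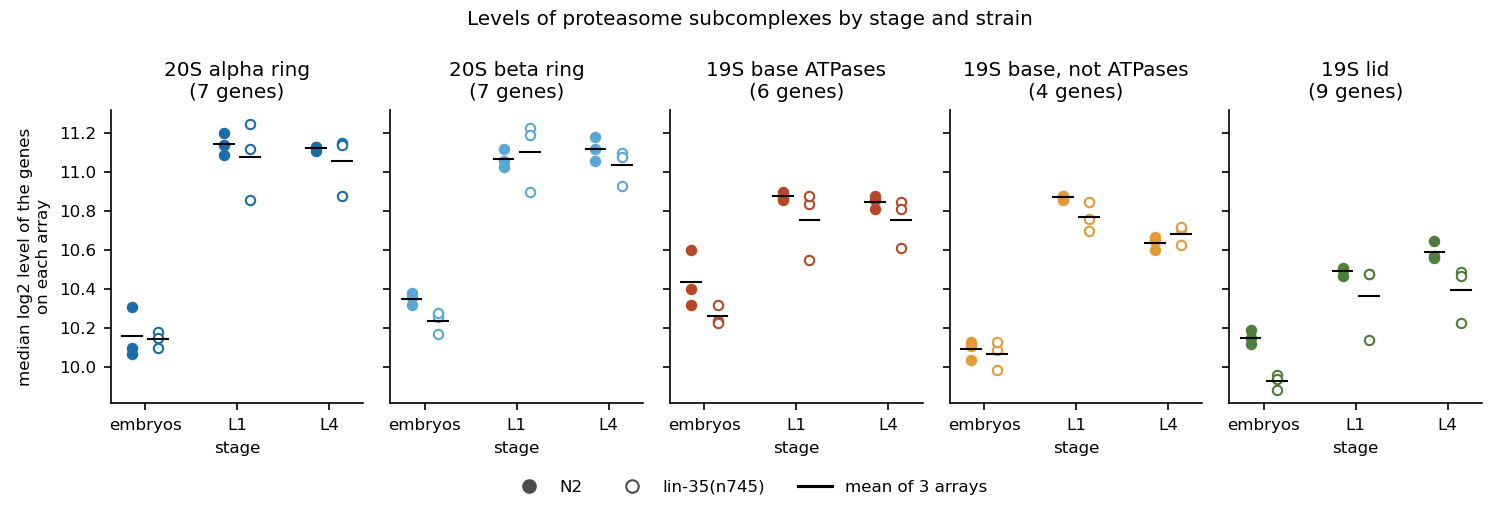
Median log2 level of the genes of each subcomplex on each array (y axis), by stage (x axis), with filled circles for N2, open circles for lin-35(n745) and bars for the mean of 3 arrays. In the alpha ring the embryo arrays lie between 10.07 and 10.31 and the larval arrays between 10.86 and 11.25; heights in different panels come from different probes and are not compared.

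The strain comparison asks whether loss of lin-35 function alters transcripts at a given stage. It gave few differences among the proteasome genes. In embryos 0 of 33 were called higher and 1 lower, where 5.92% and 3.78% of all probe sets were called. At L1 the counts were 0 higher and 0 lower (background 8.24% and 6.94%). At L4 they were 0 higher and 1 lower (background 7.77% and 7.48%). Without adjustment, p was under 0.05 for 4, 4 and 6 of the 33 genes at the 3 stages, and for 21.9%, 27.6% and 25.6% of all probe sets. The median strain difference was -0.07 in embryos, -0.08 at L1 and -0.11 at L4, beside -0.04, -0.04 and -0.03 over all genes.

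For each of the 32 genes other than rpn-6.2 the fit gives a 95% interval of the strain difference, which does not hold for all the genes jointly. Their differences ran from -0.38 (pbs-6) to 0.18 (rpn-3) in embryos, from -0.28 (rpn-8) to 0.30 (pbs-1) at L1 and from -0.30 (rpn-7) to 0.37 (pbs-1) at L4. The 95% interval lay within a 1.5-fold change in both directions for 32, 31 and 31 of the 32, and the exception at both larval stages was pbs-1. Of all 33 genes, 22, 26 and 27 had a difference below 0 (66.7%, 78.8% and 81.8%), as had 58.6%, 56.9% and 57.6% of all genes. The genes share arrays, so a share can rest on 1 or a few arrays. The third mutant L1 array was the lowest of its group for 32 genes and the second mutant L4 array for 28. On the other mutant L1 arrays the median over the 33 genes was 10.96 and 10.92, above the 10.85 to 10.91 of N2. On the other mutant L4 arrays it was 10.91 and 10.86, against 10.88 to 10.99 in N2. In mutant embryos no single array stood apart, as replicates 1, 2 and 3 held the lowest value for 16, 2 and 15 genes. In embryos the arrays of the strains did not overlap for 0 genes with lin-35(n745) higher and 6 with it lower (11.5% and 14.3% of all probe sets), at L1 for 0 and 4 (12.5% and 14.1%), and at L4 for 2 and 11 of the 33 (16.1% and 19.8%). At L4 the 11 included rpn-7, rpn-8, rpn-9, rpn-11, rpn-12 and rpn-6.2 of the lid, pas-2 and pas-7 of the alpha ring, pbs-2 and pbs-6 of the beta ring, and rpt-6.

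**Figure D2:**
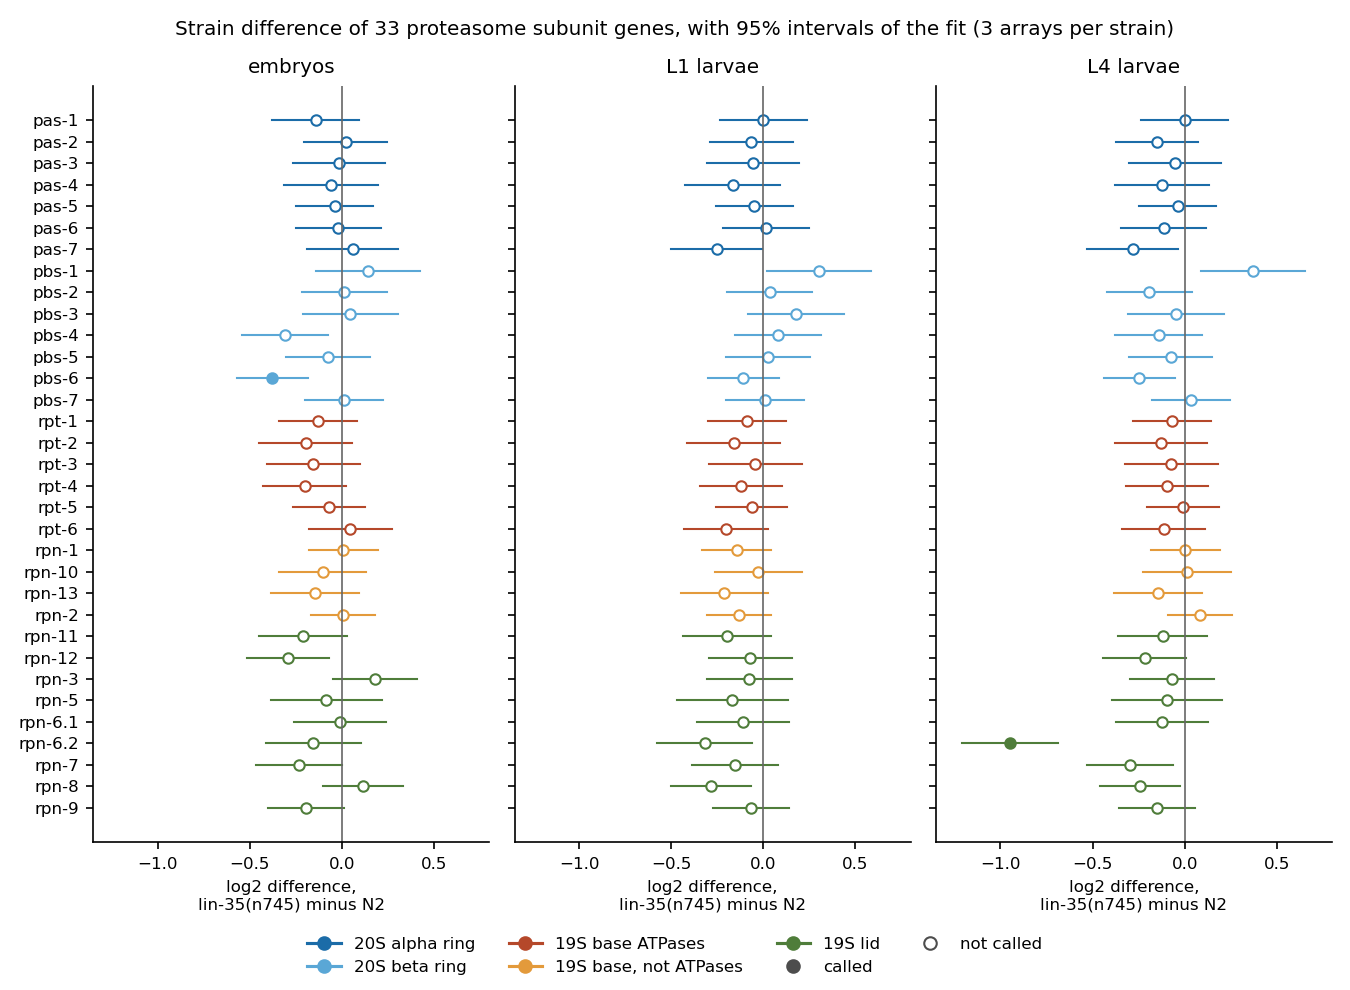
Fitted strain difference of each of the 33 genes on the log2 scale (x axis) with its 95% interval, in 3 panels for embryos, L1 and L4, coloured by subcomplex. Filled points are called at adjusted p under 0.05: pbs-6 in embryos at -0.38 and rpn-6.2 at L4 at -0.95.

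In the 20S core, pbs-6, a beta ring subunit without a catalytic site, was the 1 gene called in embryos. N2 embryos read 10.51, 10.59 and 10.71 and lin-35(n745) embryos 10.17, 10.24 and 10.28. The groups did not overlap, and the mutant was lower by 0.38 ± 0.09 (SE), or 1.30-fold (limma adjusted p = 0.0113). Without the third N2 embryo array the difference was -0.32 (adjusted p = 0.0642) and without the first lin-35(n745) embryo array -0.35 (adjusted p = 0.0512), so either array ends the call. It was called without the replicate 1 arrays of both strains. At L1 pbs-6 read 11.12, 11.14 and 11.13 in N2 and 11.08, 11.03 and 10.95 in the mutant, and at L4 11.19, 11.16 and 11.24 against 11.10, 10.79 and 10.96. The mutant was the lower group at all 3 stages, with differences of -0.11 at L1 and -0.25 at L4 (adjusted p = 0.0836 at L4) that were not called.

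pbs-1, whose product carries the caspase-like site, lay on the other side of 0. At L4 it read 10.90, 10.76 and 10.75 in N2 and 11.28, 11.03 and 11.21 in lin-35(n745). The groups did not overlap, and the difference of 0.37 ± 0.14 (SE) was not called (limma adjusted p = 0.0741). At L4 it was called under 4 of the alternative settings given in the closing section. The other catalytic subunits, pbs-2 (trypsin-like) and pbs-5 (chymotrypsin-like), differed by -0.19 and -0.08 at L4, neither of which was called.

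At L1, where 0 genes were called, the smallest p-values were those of rpn-8, a lid subunit that pairs with the deubiquitinase rpn-11, and rpn-6.2. rpn-8 read 10.97, 10.87 and 10.97 in N2 L1 larvae and 10.86, 10.65 and 10.45 in lin-35(n745) L1 larvae, a difference of -0.28 ± 0.10 (SE, limma adjusted p = 0.0748). The groups did not overlap, and the third mutant array was the lowest. Without the first mutant array the difference was -0.39 (adjusted p = 0.0167) and without the third -0.18 (0.32). The 1 gene called at L1 without the third was pbs-1, which was higher. rpn-11 differed by -0.21, -0.20 and -0.12 at the 3 stages, with 0 calls.

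Further genes had an unadjusted p under 0.05 and were not called. pbs-4, a structural beta subunit, read 10.36, 10.49 and 10.44 in N2 embryos and 10.02, 10.19 and 10.15 in the mutant, a difference of -0.31 ± 0.11 (SE, limma adjusted p = 0.0919). At L1 it read 11.01, 11.06 and 11.01 in N2 and 11.23, 11.25 and 10.85 in the mutant. The embryo groups did not overlap, whereas at L1 the mutant arrays lay on both sides of N2.

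In the lid, rpn-12 read 10.08, 10.16 and 9.98 in N2 embryos and 9.73, 9.73 and 9.86 in lin-35(n745) embryos (difference -0.29, limma adjusted p = 0.0976). rpn-7, a structural lid subunit, read 10.92, 10.94 and 10.92 in N2 L4 larvae and 10.80, 10.49 and 10.59 in the mutant (difference -0.30, adjusted p = 0.0834). Neither pair of groups overlapped, and neither difference was called. By subcomplex, the median strain differences of the lid genes were -0.16 in embryos, -0.15 at L1 and -0.15 at L4. Those of the ATPases were -0.14, -0.10 and -0.08, those of the alpha ring -0.02, -0.05 and -0.11, and those of the beta ring 0.01, 0.03 and -0.08. The other base subunits stood at -0.05, -0.14 and 0.01. These medians were not tested against each other. Taken as lid medians per array, L1 larvae of the mutant read 10.48, 10.48 and 10.14 against 10.47 to 10.51 in N2. Only the third mutant L1 array thus lay below all N2 arrays. In embryos the mutant read 9.88 to 9.96 against 10.12 to 10.19. L4 larvae of the mutant read 10.49, 10.23 and 10.47 against 10.56 to 10.65, with the second array the lowest.

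rpn-6.2 (F59B2.5, chromosome III) was low in embryos and L1 larvae and high in L4 larvae. N2 embryos read 5.46, 5.32 and 5.34, N2 L1 larvae 5.46, 5.57 and 5.14, and N2 L4 larvae 8.66, 8.80 and 8.93. lin-35(n745) embryos read 5.28, 5.22 and 5.16, L1 larvae 4.95, 5.03 and 5.23, and L4 larvae 7.98, 7.61 and 7.96. All embryo and L1 values lie below the median of every array, where these processed values, which carry no detection call, do not separate a low level from background. At L4 all 6 arrays lay far above them, with the 3 mutant arrays below the 3 N2 arrays.

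From L1 to L4 rpn-6.2 rose by 3.41 ± 0.12 (SE) in N2, or 10.6-fold (limma adjusted p = 1.28e-14), and by 2.78 ± 0.12 in lin-35(n745), or 6.86-fold (adjusted p = 3e-13). Where an L1 reading is background, the fold is a lower limit. At L4 the mutant mean of 7.85 ± 0.21 (SD, n = 3) stood against 8.80 ± 0.14 in N2. The difference of -0.95 ± 0.12 (SE), or 1.93-fold, was called (adjusted p = 1.21e-05, 95% interval -1.21 to -0.69), and it was called under all 14 alternatives, at -1.02 to -0.83. At L1 the difference was -0.32 (adjusted p = 0.0912) and in embryos the groups did not overlap but rpn-6.2 was not called.

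The fitted strain difference of rpn-6.2 was compared between stages, with the limit that its embryo and L1 readings are not shown to lie above background. A difference between strains there could be hidden, so these values do not settle whether the ratio of the strains depended on the stage. As read, it was more negative at L4 than in embryos by 0.79 ± 0.17 (SE, limma adjusted p = 0.00603), and this call held under all 21 alternatives. It was more negative at L4 than at L1 by 0.63 ± 0.17 (adjusted p = 0.0337), a call that 5 single arrays decide. Without the third N2 L1 array the difference was -0.51 (adjusted p = 0.111) and without the third lin-35(n745) L1 array -0.55 (0.0819). Without N2 L4 replicate 2 it was -0.63 (0.0715), without replicate 3 -0.56 (0.096), and without the second lin-35(n745) L4 array -0.51 (0.107). For these stage dependences 1 of 33 genes was called from L1 to L4 and 1 of 33 from embryos to L4, against 6.72% and 7.74% of all probe sets. From embryos to L1, 0 of 33 were called, against 9.2%, with 2 at an unadjusted p under 0.05 (22.2% of all probe sets), pbs-4 (0.39) and rpn-8 (-0.40).

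Sperm markers were measured in the same samples because L4 hermaphrodites make sperm. Of 9 listed, 8 were measured, and from L1 to L4 in N2 all 8 rose, with a median of 2.57. Their mean level ran from 4.65 to 4.81 in N2 L1 larvae, from 7.08 to 7.19 in N2 L4 larvae and from 6.79 to 6.97 in lin-35(n745) L4 larvae. At L4 the strain difference of spe-44, a regulator of spermatogenesis genes, was -0.98 (limma adjusted p = 0.000174) and that of fer-1 was -0.39 (0.0199). cpb-1 was higher by 0.44 (0.0156), and gsp-3, gsp-4, spe-9, spe-11 and spe-38 were not called, at -0.27 to -0.04. Germline markers differed too, with 6 of 10 higher and 0 lower in lin-35(n745) L4 larvae, and a mean level of 9.94 to 9.96 against 9.37 to 9.42 in N2. The part of either cell type in the rpn-6.2 values was not tested.

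The paralog rpn-6.1 (F57B9.10, chromosome III), which encodes the lid subunit whose raised level is known to increase proteasome activity in worms, had another course. N2 embryos read 10.69, 10.69 and 10.67, N2 L1 larvae 10.51, 10.44 and 10.36, and N2 L4 larvae 10.39, 10.43 and 10.48. Mutant embryos read 10.64, 10.73 and 10.66, mutant L1 larvae 10.47, 10.55 and 9.95, and mutant L4 larvae 10.40, 10.20 and 10.33. All larval arrays lay below all embryo arrays, and the strains overlapped at every stage. From embryos to L1 the difference was -0.25 ± 0.12 (SE) in N2, which was not called (limma adjusted p = 0.0648), and rpn-6.1 fell by 0.35 in lin-35(n745) (adjusted p = 0.013). The third mutant L1 array was the lowest of the 18 for rpn-6.1. Without it the calls in the mutant from embryos to L1 were 28 higher and 0 lower, so this call of rpn-6.1 rests on that array, and it also ended with centred arrays and with only the arrays compared. From embryos to L4, which does not use that array, rpn-6.1 fell by 0.37 in the mutant (adjusted p = 0.00988) and was called lower under all 15 alternatives.

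**Figure D3:**
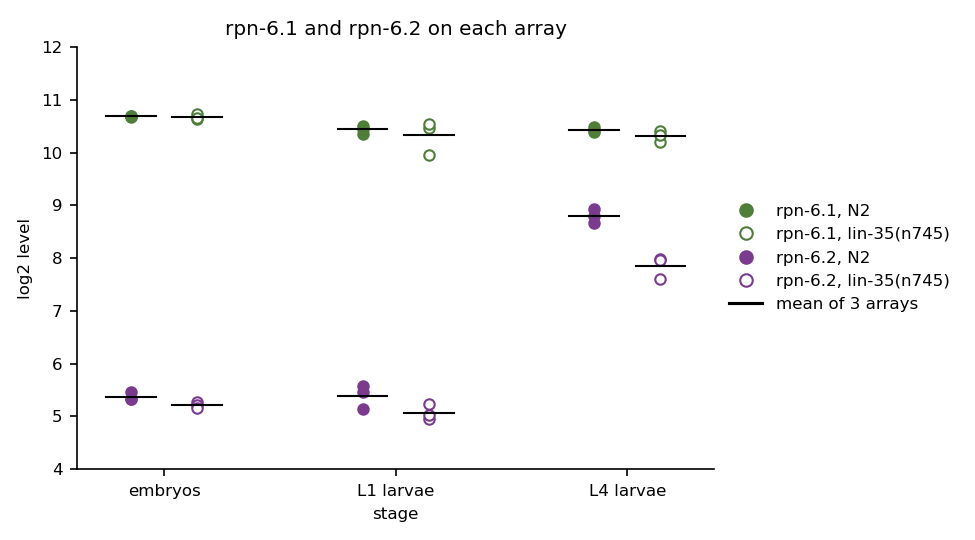
Log2 level of rpn-6.1 (green) and rpn-6.2 (purple) on each array (y axis), by stage (x axis), with filled circles for N2, open circles for lin-35(n745) and bars for the mean of 3 arrays. rpn-6.2 stands at 5.57 or below in embryos and L1 larvae and at 7.61 to 8.93 in L4 larvae, with N2 above lin-35(n745). The genes are read by different probes, so their heights are not compared.

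The stage comparisons show how the transcripts of the subunits differed between stages. In N2, 28 of 33 genes rose from embryos to L1 and 0 fell, where 40.8% of all probe sets were called higher and 33.6% lower. The median change was 0.60, or 1.51-fold, beside 0.15 over all genes. The proteasome median stood 0.446 above that of all genes, and 0.65 above it with quantile normalization applied once more. Centring each array on its median shifts all genes alike by 0.12 here and leaves that distance as it is. In lin-35(n745) 27 rose and 1 fell (background 37.4% and 32.9%), with a median of 0.64. The genes called higher in both strains numbered 26: rpn-3 and rpn-8 were called in N2 alone and rpt-1 in lin-35(n745) alone, and the test of the difference between strains called none of them.

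In the alpha ring 7 of 7 genes rose in N2, with a median of 2.12-fold. pas-2 read 9.95, 9.89 and 9.93 in N2 embryos and 11.09, 11.20 and 11.14 in N2 L1 larvae, a rise of 1.22 ± 0.11 (SE, limma adjusted p = 2.84e-09). pas-7 rose from 9.35 ± 0.17 to 10.48 ± 0.18 (SD, n = 3) and pas-1 from 9.82 ± 0.10 to 10.93 ± 0.08. pas-5 had the smallest rise of the ring, 0.59. In lin-35(n745) all 7 rose as well, by 0.58 (pas-5) to 1.26 (pas-1). Embryo and L1 arrays did not overlap for any of these named genes in either strain.

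In the beta ring 7 of 7 rose in N2, with a median of 1.56-fold. The rise was 1.07 for the catalytic pbs-5 and for pbs-2 and 0.38 for the third catalytic gene, pbs-1 (limma adjusted p = 0.0171). pbs-2 read 9.76, 9.76 and 9.75 in N2 embryos and 10.72, 10.92 and 10.83 at L1. In lin-35(n745) the ring's median rise was 1.98-fold, and pbs-4 rose by 0.99 in the mutant against 0.60 in N2. The difference between these rises is the 0.39 given above, which was not called (adjusted p = 0.139).

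The ATPases of the base rose in 5 of 6 cases in N2, with a median of 1.46-fold. rpt-6 led, from 8.42, 8.31 and 8.52 to 9.48, 9.49 and 9.67, a rise of 1.13 ± 0.11 (SE, limma adjusted p = 9.89e-09). rpt-2, rpt-3, rpt-4 and rpt-5 rose by 0.69, 0.52, 0.31 and 0.57. rpt-1 differed by 0.19 in N2, which was not called (adjusted p = 0.1), and by 0.23 in lin-35(n745) (0.0463). Of the other base subunits, the scaffolds rpn-1 and rpn-2 and the ubiquitin receptor rpn-10 rose by 0.87, 0.74 and 0.77 in N2. The other ubiquitin receptor, rpn-13, differed by -0.09 in N2 (limma adjusted p = 0.473) and -0.16 in the mutant (0.222). Its mean was 9.37 ± 0.11 in N2 embryos, 9.28 ± 0.08 at L1 and 9.44 ± 0.10 at L4 (SD, n = 3), with overlapping arrays.

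The lid was the most mixed group, with 6 of 9 genes called higher in N2 and 4 of 9 in lin-35(n745), where rpn-6.1 was lower. Over all probe sets 40.8% were called higher in N2 and 37.4% in lin-35(n745), so the mutant count of the lid is near that share. rpn-5 had the widest spread of all, with 9.93, 9.20 and 9.81 in N2 embryos and 10.47, 10.57 and 10.56 at L1. rpn-5 rose by 0.89 in N2 and 0.81 in lin-35(n745). rpn-11, the deubiquitinase that removes chains from the substrate, rose by 0.45 and 0.46. rpn-9 differed by -0.11 in N2 (limma adjusted p = 0.301) and 0.02 in lin-35(n745), with means of 10.19 ± 0.07 in N2 embryos and 10.07 ± 0.02 at L1 (SD, n = 3). rpn-6.1, rpn-9 and rpn-13 had the 3 lowest changes in N2 of all members, whereas rpt-6 of the same particle rose by 2.19-fold.

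**Figure D4:**
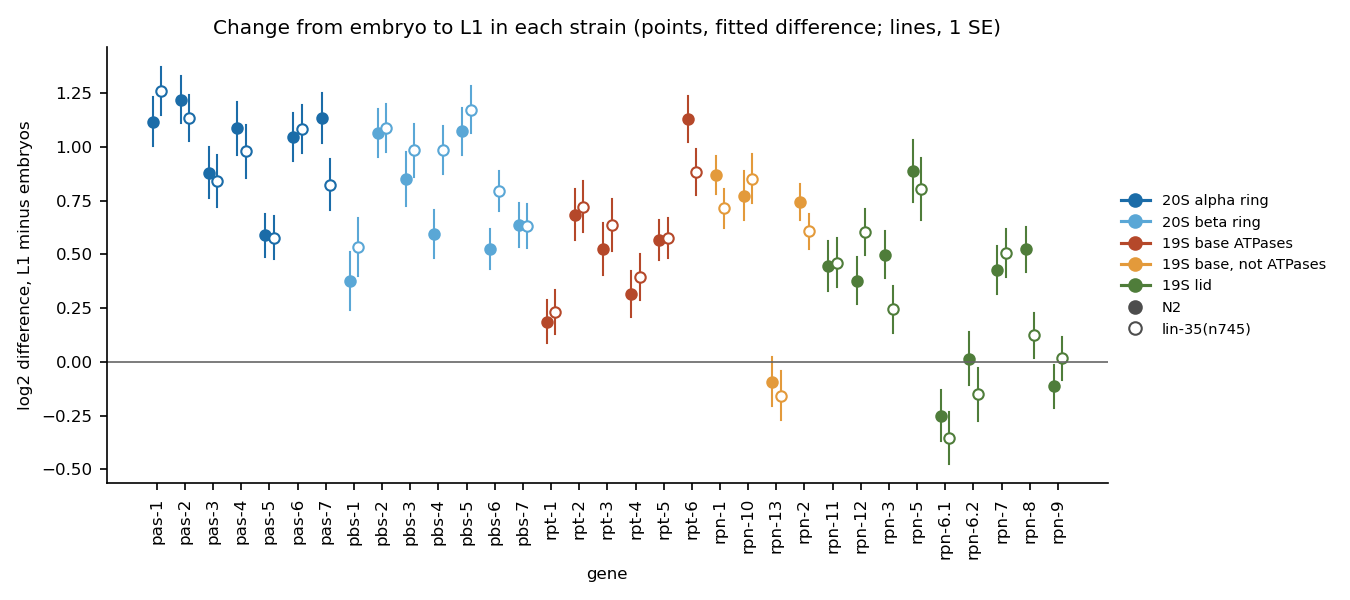
Log2 difference between L1 larvae and embryos (y axis) of each gene (x axis) in N2 (filled) and lin-35(n745) (open), with lines of 1 SE, coloured by subcomplex. rpn-6.1, rpn-9, rpn-13 and rpn-6.2 lie between -0.35 and 0.02, and the other genes lie above them, up to 1.26.

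Between L1 and L4 few genes were called. In N2, rpn-6.2 and rpn-9 were called higher and rpn-2 lower, 2 and 1 of 33 (background 21.2% and 24%), and the median was 0.07 beside -0.04 over all genes. rpn-9 rose by 0.27 from 10.07 to 10.34 (limma adjusted p = 0.0306), and rpn-2 fell by 0.22 from 10.80 to 10.58 (adjusted p = 0.0404). The rpn-9 call ended when any N2 larval array except the second of L4 was left out (adjusted p up to 0.113), and the rpn-2 call when any except the first of L1 was (adjusted p up to 0.127). That of rpn-9 also ended with arrays centred on their medians (0.0547) and with quantile normalization applied once more (0.0726). The second probe set of rpn-2 was called in the other direction, at 0.41 (adjusted p = 0.0158), so the direction for rpn-2 is not settled. Among the genes not called, the lowest values were those of rpn-10 (-0.26, limma adjusted p = 0.0664) and pbs-7 (-0.16), and the highest that of rpn-7 (0.23). In lin-35(n745), 1 gene, rpn-6.2, was called higher and 0 lower (background 19.5% and 23.7%), with 2 at an unadjusted p under 0.05 (48.6% of all probe sets).

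From embryos to L4 the counts resemble those from embryos to L1, with which they share the embryo arrays. In N2 29 were called higher and 0 lower (background 38.6% and 35.8%), with a median of 0.65, and in lin-35(n745) 29 and 1, rpn-6.1 (background 36.3% and 35.9%), with a median of 0.72. Called higher in both strains were 28. After rpn-6.2, at 3.42, the largest rises in N2 were those of pas-7, from 9.35 to 10.72 (1.37), and pbs-2, from 9.76 to 11.02 (1.26). The lowest were rpn-6.1 (-0.25, limma adjusted p = 0.0641), rpn-13 (0.08) and rpn-9 (0.16), of which none was called. Rises of at least 2-fold numbered 10 of 33 in N2 and 8 of 33 in the mutant (13.3% and 12.8% of all probe sets). Markers of the early embryo moved the other way over the same stages: of 7 listed, 6 were measured and all 6 fell in N2 at L1 and at L4, from a mean level of 6.40 to 6.51 in embryos to 4.99 to 5.03 at L1. Their part in the stage differences was not tested.

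Across the 6 group means, 27 of the 33 genes had a Pearson correlation of at least 0.9 with the mean of the other members. The other 6 were rpn-8 (0.884), pbs-1 (0.688), rpn-6.2 (0.565), rpn-9 (0.405), rpn-13 (0.087) and rpn-6.1 (-0.884). These are descriptions over 6 points that share arrays and in which the step from embryo to larva dominates. Among genes outside the complex, the 5 most like the mean of the z-scored members were K09D9.3 (0.99908), W08E12.7 (0.99829), bas-1 (0.99822), acox-1.2 (0.99816) and K03H1.9 (0.99793), of 17085 compared. Correlations over 0.99 were held by 130 genes, so the order among them carries little. Most like rpn-6.2, a comparison chosen after its values were seen, were pes-8 (0.99886), col-60 (0.99854), K09E4.1 (0.99853), C31H1.1 (0.99771) and F02C9.1 (0.99645), with 37 genes over 0.99.

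Genes that work with the proteasome were taken from a list of 23, of which 21 were measured. They followed no common course: from embryos to L1 in N2, 7 rose and 10 fell, with a median of -0.20. Over all probe sets 40.8% were called higher and 33.6% lower, so rises and falls were mixed there too. Among the subunits there were 28 rises and 0 falls. The segregase genes cdc-48.1 and cdc-48.2, which extract ubiquitinated proteins, rose by 0.42 and 0.81, and uba-1, the ubiquitin-activating enzyme, by 0.56. The ligase gene chn-1 fell by 1.79 and ufd-2, a chain-elongation factor, by 0.73. The shuttle factors rad-23 and ubql-1 fell by 0.55 and 0.49, and the 19S-bound deubiquitinases went both ways, usp-14 rising by 0.36 and ubh-4 falling by 0.46.

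For the strain difference the list of 21 measured genes held 1 called higher and 1 lower in embryos (background 5.92% and 3.78%). At L1 1 was called higher and 0 lower (background 8.24% and 6.94%), and at L4 2 and 0 (7.77% and 7.48%). Counts this small do not set the list apart from all probe sets. In lin-35(n745) embryos the polyubiquitin gene ubq-1 was higher by 0.33 (limma adjusted p = 0.0401) and ddi-1, a protease that activates SKN-1, lower by 0.35 (0.042). uba-1 was higher by 0.28 at L1 (0.0498). At L4 cdc-48.1 was higher by 0.30 (0.0361) and skn-1 by 0.56 (0.0162). skn-1 read 8.03, 8.15 and 7.85 in N2 L4 larvae and 8.36, 8.88 and 8.47 in lin-35(n745) L4 larvae, without overlap. The subunit genes had a median strain difference of -0.11 at that stage, beside -0.03 over all genes. A link between the skn-1 and subunit values was not tested. Of ubiquitin-conjugating genes the annotation names 4 by the symbols searched (let-70, uev-1, uev-2 and uev-3). The search for symbols starting with ubc- found no gene, so genes of that name are not covered here. By limma 0 of the 4 were called for strain at any stage, and at an unadjusted p under 0.05 there were 0 at each stage.

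**Figure D5:**
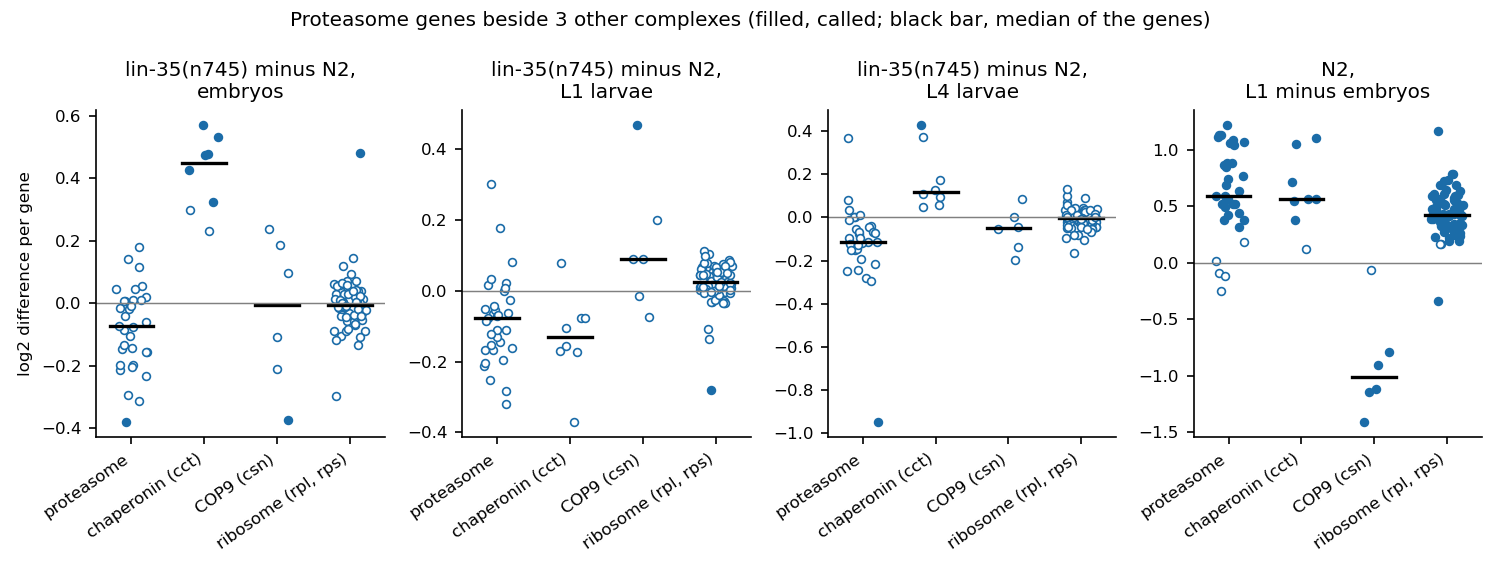
Log2 difference of each gene (y axis, scaled per panel) of the proteasome, the cytosolic chaperonin, the COP9 signalosome and the ribosome (x axis) for the strain comparison at 3 stages and for L1 minus embryos in N2. Filled points are called and bars are medians. In embryos 6 of 8 chaperonin genes are called higher in lin-35(n745), as are 5.92% of all probe sets. From embryos to L1 the COP9 median is -1.02 and the proteasome median 0.60.

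Set beside 3 other complexes, the proteasome was not alone in having few strain calls. Over all probe sets 5.92%, 8.24% and 7.77% were called higher in embryos, at L1 and at L4, and 3.78%, 6.94% and 7.48% lower. Among 75 ribosomal protein genes 1 was called higher in embryos, 1 lower at L1 and 0 at L4, both calls being of rpl-11.1; by limma 0 of the 75 had an unadjusted p under 0.05 at L4. From embryos to L1 in N2, 72 of the 75 rose and 1 fell (background 40.8% and 33.6%), with a median of 0.42. The cytosolic chaperonin, which folds actin and tubulin, differed in embryos: 6 of 8 genes were higher in lin-35(n745), with a median of 0.45, among them cct-6 (0.57, limma adjusted p = 0.000467), cct-3 (0.53, 0.0267), cct-2 (0.48, 0.00246) and cct-5 (0.48, 0.0039). In N2 embryos cct-3 read 5.82 to 5.94, below the median of every array, where a low level is not separated from background. At L1 0 of 8 chaperonin genes were called by limma (1 at an unadjusted p under 0.05) and at L4 1, cct-8 (0.43, 0.0239).

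The COP9 signalosome, which removes NEDD8 from cullin ubiquitin ligases and is built like the proteasome lid, took the opposite course to it from embryos to L1. In N2, 5 of its 6 genes fell and 0 rose, with a median of -1.02, against 6 of 9 lid genes that rose, with a median of 0.43. Over all probe sets 33.6% were called lower and 40.8% higher. Of the 6 COP9 genes, 5 reached a mean of 6 in at least 1 group. csn-5, the counterpart of the lid deubiquitinase rpn-11, fell by 1.41 (limma adjusted p = 1.58e-11). csn-1 fell by 1.12 and csn-3 by 1.14, whereas csn-2 differed by -0.06 and was not called. In N2 L1 larvae csn-1 read 5.89 to 6.28, near the array medians, so its fall may be a lower limit. For strain, csn-1 was lower by 0.37 in lin-35(n745) embryos (0.0303) and csn-3 higher by 0.47 at L1 (0.0025), with 0 calls at L4, where csn-5 had the smallest adjusted p (0.161) and 1 of the 6 had an unadjusted p under 0.05.

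A second probe set was available for 6 of the 33 genes. From embryos to L1 in N2 it had the same sign as the first for 6 of 6, with 5 of them called. For the strain difference the signs matched for 4 of 6 in embryos, 4 of 6 at L1 and 1 of 6 at L4. Of the probe sets used, 21 of 33 carry the suffix _s_at, which marks probes that can read more than 1 transcript.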

How the data were processed

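The authors' deposited values are 1 log2 number per probe set and array, made with RMA (robust multi-array average: background correction, quantile normalization, summary over probes) per the submitters' processing notes; its version is not given in the sources used here. Nor is the base of the logarithm stated; log2 was read from the range of 2.55 to 15.02, and every fold rests on it. RMA gives no detection call, and precision is limited by the 3 arrays per group. Samples were grouped by their titles. Nothing was renormalized. The table holds 22625 probe sets, of which 77 are controls and 22548 were tested; 20766 name 1 gene in the platform annotation, giving 17118 genes, and 0 value columns were left unused.

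Using limma 3.58.1 under R 4.3.3, the 18 arrays were described by 1 mean per group (lmFit, eBayes without trend; 12 residual and 7.66 prior degrees of freedom), two-sided, adjusted within each of 12 contrasts over all probe sets; SE is that of the fit and SD is over 3 arrays. The procedure was tested on simulated data for the strain comparison at L4. Changes of 0.5 were called in 46.3% of the probe sets changed, of 1 in 92.5% and of 2 in 100%. Among unchanged probe sets 6 were called. The simulation changed 67, 67 and 66 probe sets by these sizes, whereas in the data 1751 were called higher and 1687 lower. Its Benjamini-Hochberg threshold was therefore stricter than that of the data. The changed probe sets were also drawn from all, not from the members. These shares thus do not give the rate at which changes of the members would be called. The strain differences of all members except rpn-6.2 were smaller than 0.5, so an absent call does not show an absent difference. Genes named with values are those called, those at the ends of each comparison, the pair rpn-6.1 and rpn-6.2, and up to 4 called genes per other list. pbs-1, pbs-4, rpn-11, rpn-7 and others given as examples of a role were chosen after their values were seen. The members, lists and alternatives were chosen with earlier results of these data known. Whether replicate numbers pair the samples was checked: deviations of same-numbered arrays correlated at -0.0521 to 0.269 and not over 0.1 for every pair, so the numbers were not used as pairs. Alternatives are given in the closing section. Sequences and scanner files were not used here.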

Additional observations from a re-analysis of the deposited data

Results flagged for a closer look

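The fitted strain difference of rpn-6.2 was called as unequal between stages by the interaction term of the limma fit. The difference at L4 minus that at L1 was -0.6283 (SE 0.1748, adjusted p = 0.0337), and the difference at L4 minus that in embryos was -0.7922 (SE 0.1748, adjusted p = 0.00603). At L4 all 3 lin-35(n745) arrays lay below all 3 N2 arrays, and so they did in embryos (5.16 to 5.28 against 5.32 to 5.46). At L1 the arrays of the strains overlapped. The L1 and embryo readings lie below the array medians and carry no detection call, so a difference between strains at those stages could be hidden and the stage dependence is not settled. None of the other 32 genes had a called stage dependence.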

How the results depend on the processing

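Of the alternatives to the reported settings, centring each array gave 2 called strain differences at L1 (rpn-6.2 and rpn-8, both lower) and 3 at L4, and medians of 0.719 (L1 minus embryos) and 0.745 (L4 minus embryos) in N2. Quantile normalizing once more gave 3 strain calls in embryos (pbs-4, pbs-6 and rpn-12), 2 calls for the stage dependence from embryos to L1, and stage medians of 0.725 and 0.753 in N2 and 0.848 and 0.837 in lin-35(n745). At L4 an intensity trend with a robust prior gave 2 strain calls, array weights 6, only the arrays compared 3 and the replicate block 2. pbs-1 was called higher in those 4 settings and rpn-6.2 lower in all of them. Array weights also gave 2 calls for the stage dependence from embryos to L4 and 5 for L4 minus L1 in N2; with only the arrays compared these were 0 for the stage dependence from L1 to L4 and 5 for L4 minus L1 in N2. The numbers of the replicates were not shown to pair the samples, and the replicate block changed no other count by over 1.5 times. With the mean of all probe sets, rpn-2 from L1 to L4 in N2 turned to 0.0996. The cause of these changes was not tested.

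Leaving out 1 array at a time, strain calls ranged from 0 to 1 in embryos, 0 to 1 at L1 and 1 to 3 at L4; stage dependence calls from 0 to 1 (embryos to L1) and 0 to 1 (L1 to L4); and calls for L4 minus L1 from 1 to 2 in N2 and 1 to 2 in lin-35(n745). The calls for L1 minus embryos stayed between 27 and 28 in each strain. At L1 the single calls were rpn-6.2 without the third N2 array, rpn-8 without the first mutant array and pbs-1 without the third, and the 3 calls at L4 came without the first mutant array. Among single results, 266 kept their direction and side of the threshold under an alternative, 20 lost the call, 14 gained one and 1 reversed. The 3 arrays per group limit the precision, and for rpn-6.2 the embryo and L1 signals lie too low to be told from background.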
